A study of Homo sapiens with 9 samples.

Results

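The T cell receptor complex and its coreceptors were followed through 10 genes, taken by symbol from the 17369 genes of the expression table. They were the CD3 chains Cd3d, Cd3e, Cd3g and Cd247, the coreceptor genes Cd8a, Cd8b1 and Cd4, the kinases Lck and Zap70, and the adhesion receptor Cd2. The genes were listed by name, with earlier results of these data known, and all 10 had a row. Whole-tumor RNA was sequenced from 9 orthotopic thyroid tumors grown from TBP3743, a Braf-mutant and Trp53-deleted murine anaplastic thyroid cancer cell line. In the original/B6129SF1 group, original TBP3743 cells were injected into B6129SF1 mice. In the adapted/B6129SF1 group, adapted cells were injected into B6129SF1 mice, and in the adapted/B6 group the adapted cells were injected into C57BL/6 mice. Each group held 3 tumors, each labelled as a separate biological replicate. All hosts were female, 6 weeks old and immune competent, received 100000 cells in the thyroid, and were sampled on day 14. The adapted cells had been passaged serially through C57BL/6 mice, with large tumors selected for the next round, and were used from round 3. They come from a single cell line, and the design has no group of original cells in C57BL/6 mice.

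A T cell recognises its target through the antigen-binding chains of the T cell receptor, which have almost no intracellular part and depend on the CD3 chains to pass the signal on. The CD8 coreceptor, built from the products of Cd8a and Cd8b1, holds a T cell to MHC class I, while the CD4 coreceptor binds MHC class II. Both coreceptors carry the kinase Lck, which phosphorylates the CD3 chains, and Zap70 then docks on those chains and starts the signal inside the cell. In bulk tumor RNA these transcripts are used as a measure of infiltrating T cells. Cd2, Lck, Zap70 and Cd247 are also used by NK cells, and some mouse dendritic cells carry CD8 alpha or CD4.

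Values are FPKM, in which fragments are divided by transcript length and by a scaling factor of the tumor, so levels can be set beside each other between genes. Read counts were not used, and the absolute depth is unknown. The relative depth of the tumors, with the first original/B6129SF1 tumor as 1, could be estimated only roughly from the spacing of low values, and ran from 0.966 to 1.37. The labels name the organism as human and the cells as cancer epithelial cells, but the table carries mouse gene symbols and the hosts are mice. The keratin gene Krt8 was at 152.9 to 614.6 FPKM over the 9 tumors and the pan-leukocyte gene Ptprc at 11.6 to 35.6, so the tumors held epithelial and blood-derived transcripts together. Skeletal muscle genes made up 7.91% of the summed FPKM of adapted/B6129SF1 replicate 3 and 1.51% of that of adapted/B6 replicate 1, and no more than 0.187% in the other 7 tumors. The label of adapted/B6129SF1 replicate 1, which stood apart for the T cell genes, was checked on the 200 genes with the largest difference between the adapted/B6 and original/B6129SF1 means, a choice in which that tumor had no part. It lay nearer to the adapted/B6 mean than to the original/B6129SF1 mean for 150 of them, and replicates 2 and 3 did so for 143 and 166.

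The T cell genes were low in the 3 original/B6129SF1 tumors and in adapted/B6129SF1 replicate 1, and several times higher in the other 5 adapted tumors. The FPKM of the 10 genes summed to 8.19, 5.52 and 8.33 in the original/B6129SF1 tumors. In the adapted/B6129SF1 tumors the sum was 9.64, 41.8 and 38.8, and in the adapted/B6 tumors it was 40.4, 27.6 and 34.6. Adapted/B6129SF1 replicate 1 was therefore close to the original tumors, while replicates 2 and 3 lay in or above the range of the adapted/B6 group. In bulk RNA of this kind, fewer T cells and less RNA per T cell cannot be told apart. Replicate 1 was the lowest tumor of its group for 10 of the 10 genes, against 33.7% of all genes tested, and lay within the original/B6129SF1 range for 6 of them, against 33.3% of all genes.

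**Figure D1:**
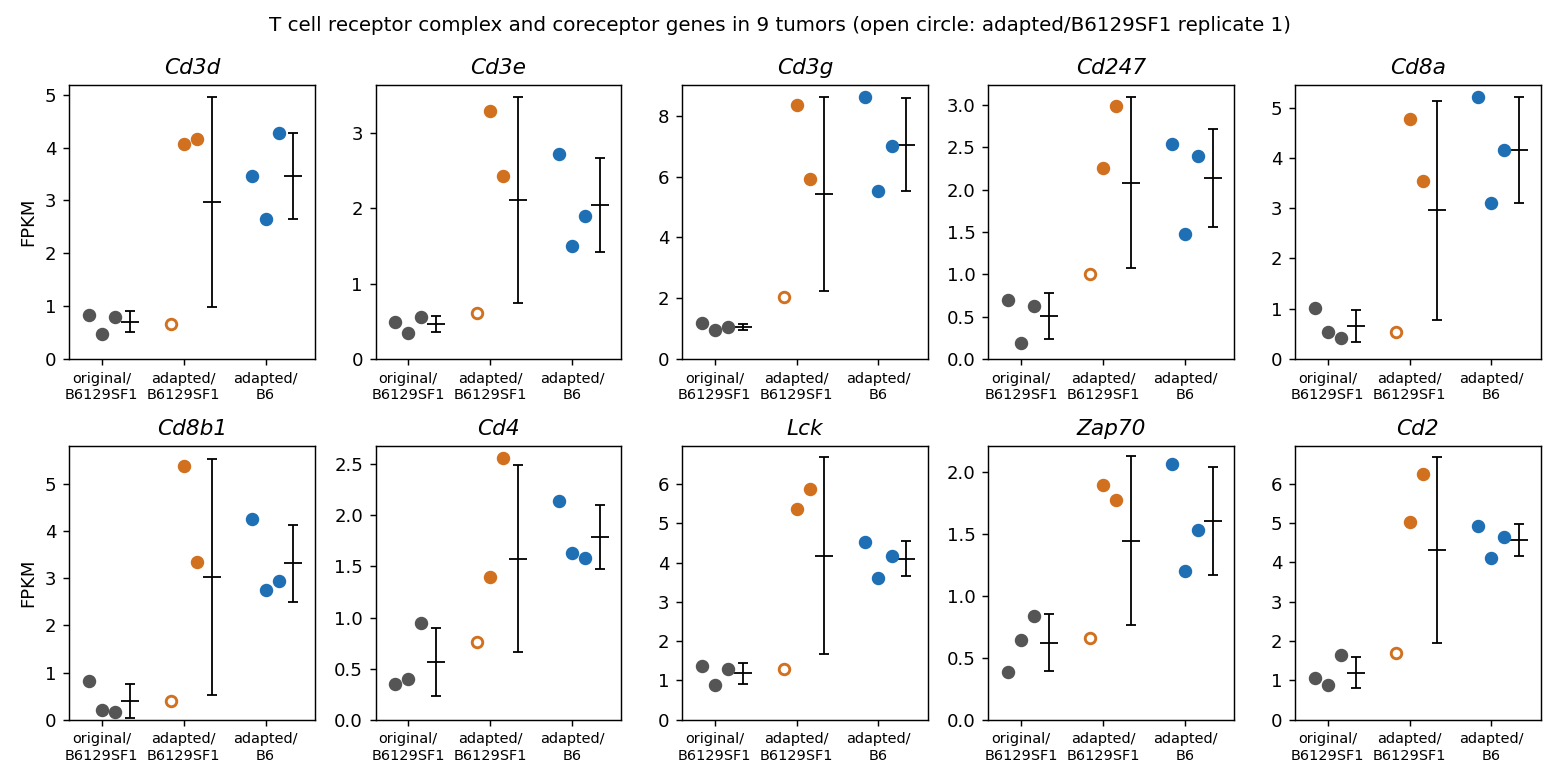
FPKM of each of the 10 genes (vertical axis, linear, separate for each panel and starting at 0) in the 9 tumors, with the group on the horizontal axis. Points are tumors, black marks are the mean and SD of 3 tumors, and the open point is adapted/B6129SF1 replicate 1, which is the lowest tumor of its group in every panel.

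Among the CD3 chains, Cd3g was the most abundant and changed most. Cd3g encodes the gamma chain, which pairs with CD3 epsilon. It was at 1.17, 0.967 and 1.04 FPKM in the original/B6129SF1 tumors, at 2.03, 8.37 and 5.93 in the adapted/B6129SF1 tumors, and at 8.62, 5.53 and 7.02 in the adapted/B6 tumors. Every adapted tumor lay above every original tumor, including replicate 1. The group means were 1.06 ± 0.104, 5.44 ± 3.20 and 7.06 ± 1.54 FPKM (SD, n = 3 tumors each). On the log2(FPKM + 1) scale, Cd3g rose by 1.50 in the adapted/B6129SF1 group (SE 0.36, adjusted p = 0.0393 from limma) and by 1.95 in the adapted/B6 group (SE 0.36, adjusted p = 0.017).

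Cd3e, the epsilon chain, is shared by both CD3 pairs of the receptor. It was at 0.488, 0.347 and 0.559 FPKM in the original/B6129SF1 tumors, at 0.610, 3.29 and 2.43 in the adapted/B6129SF1 tumors, and at 2.72, 1.50 and 1.89 in the adapted/B6 tumors. The adapted tumors again all lay above the original tumors, but replicate 1 was above the highest of them by a margin smaller than their own spread. The log2 difference from the original/B6129SF1 group was 0.97 for adapted/B6129SF1 (SE 0.34, adjusted p = 0.109 from limma) and 1.04 for adapted/B6 (SE 0.34, adjusted p = 0.101), neither past the threshold. Cd3d, the delta chain, was at 0.842, 0.475 and 0.791 FPKM in the original/B6129SF1 tumors, at 0.667, 4.08 and 4.16 in the adapted/B6129SF1 tumors, and at 3.47, 2.66 and 4.27 in the adapted/B6 tumors. Here replicate 1 was inside the original range, so the original/B6129SF1 and adapted/B6129SF1 groups overlapped, and the adapted/B6 group did not overlap the original tumors. The log2 differences of Cd3d were 1.06 (SE 0.40, adjusted p = 0.138) and 1.38 (SE 0.40, adjusted p = 0.0748).

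Cd247 encodes the zeta chain, which carries most of the phosphorylation sites of the complex. It was at 0.692, 0.191 and 0.628 FPKM in the original/B6129SF1 tumors, at 1.00, 2.26 and 2.99 in the adapted/B6129SF1 tumors, and at 2.53, 1.48 and 2.40 in the adapted/B6 tumors. All adapted tumors were above all original tumors. Its log2 difference was 1.00 for adapted/B6129SF1 (SE 0.28, adjusted p = 0.0644 from limma) and 1.06 for adapted/B6 (SE 0.28, adjusted p = 0.0569), and with both adapted groups combined it rose by 1.03 (SE 0.24, adjusted p = 0.0291).

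Of the 10 genes, the CD8 gene Cd8b1 had the largest fold between group means. Its partner Cd8a encodes the alpha chain, and was at 1.01, 0.532 and 0.416 FPKM in the original/B6129SF1 tumors, at 0.541, 4.78 and 3.55 in the adapted/B6129SF1 tumors, and at 5.21, 3.11 and 4.16 in the adapted/B6 tumors. Cd8b1 encodes the beta chain, which is more restricted to conventional CD8 T cells. It was at 0.816, 0.206 and 0.167 FPKM in the original/B6129SF1 tumors, at 0.392, 5.37 and 3.33 in the adapted/B6129SF1 tumors, and at 4.26, 2.76 and 2.95 in the adapted/B6 tumors. For both chains the adapted/B6 tumors were all above the original tumors, and replicate 1 of adapted/B6129SF1 was within the original range. The mean of Cd8b1 was 7.65-fold higher in adapted/B6129SF1 and 8.38-fold higher in adapted/B6 than in original/B6129SF1, and that of Cd8a was 4.52-fold and 6.37-fold higher. Original/B6129SF1 replicate 1 had the highest level of both chains in its group, and without it the folds of Cd8b1 were 16.3 and 17.8 and those of Cd8a were 6.24 and 8.78. Leaving out either of the other original tumors gave folds of 5.94 to 6.76 for Cd8b1. On the log2(FPKM + 1) scale, which understates changes at these low levels, the difference of Cd8b1 was 1.30 (SE 0.49, adjusted p = 0.136 from limma) and 1.64 (SE 0.49, adjusted p = 0.0813). That of Cd8a was 1.07 (SE 0.44, adjusted p = 0.163) and 1.64 (SE 0.44, adjusted p = 0.0596), so neither chain passed the threshold in the 9 tumors.

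Cd4 differed less. It was at 0.351, 0.401 and 0.951 FPKM in the original/B6129SF1 tumors, at 0.764, 1.39 and 2.57 in the adapted/B6129SF1 tumors, and at 2.14, 1.63 and 1.58 in the adapted/B6 tumors. Original/B6129SF1 replicate 3, which had the lowest Cd8a and Cd8b1 of the original tumors, had the highest Cd4, and it lay above adapted/B6129SF1 replicate 1. The mean of Cd4 was 2.77-fold higher in adapted/B6129SF1 and 3.15-fold higher in adapted/B6 than in original/B6129SF1, and without original/B6129SF1 replicate 3 these folds were 4.19 and 4.75. Its log2 difference was 0.68 (SE 0.27, adjusted p = 0.151 from limma) and 0.84 (SE 0.27, adjusted p = 0.0959).

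Lck was the most abundant kinase of the set, and its level in replicate 1 was again that of an original tumor. It was at 1.36, 0.885 and 1.30 FPKM in the original/B6129SF1 tumors, at 1.29, 5.37 and 5.87 in the adapted/B6129SF1 tumors, and at 4.51, 3.62 and 4.17 in the adapted/B6 tumors. Its log2 difference was 1.10 (SE 0.37, adjusted p = 0.104 from limma) for adapted/B6129SF1 and 1.23 (SE 0.37, adjusted p = 0.0836) for adapted/B6, and with both adapted groups together it rose by 1.16 (SE 0.32, adjusted p = 0.0490). Zap70 had the smallest differences of the 10 genes. It was at 0.387, 0.642 and 0.839 FPKM in the original/B6129SF1 tumors, at 0.659, 1.89 and 1.78 in the adapted/B6129SF1 tumors, and at 2.07, 1.20 and 1.53 in the adapted/B6 tumors. The adapted/B6 tumors were above all original tumors, but the log2 differences were 0.56 (SE 0.25, adjusted p = 0.192) and 0.68 (SE 0.25, adjusted p = 0.137).

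Cd2 binds CD48 on the partner cell and strengthens the contact. It was at 1.06, 0.877 and 1.64 FPKM in the original/B6129SF1 tumors, at 1.69, 5.02 and 6.24 in the adapted/B6129SF1 tumors, and at 4.92, 4.12 and 4.64 in the adapted/B6 tumors. Replicate 1 lay just above the highest original tumor. Cd2 rose by 1.36 in the adapted/B6 group (SE 0.33, adjusted p = 0.0471 from limma), while its difference in the adapted/B6129SF1 group was 1.17 (SE 0.33, adjusted p = 0.0653).

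Counted over the 10 genes, 1 was called higher against original/B6129SF1 in the adapted/B6129SF1 tumors, which was Cd3g, beside 2.36% of the 10263 genes tested. A call needed an adjusted p under 0.05 over all genes tested and a log2 difference above 1. In the adapted/B6 group 2 were called higher, Cd3g and Cd2, against 2.42% of genes. With both adapted groups combined 4 were called higher, Cd3g, Cd2, Cd247 and Lck, against 2.53% of genes. These comparisons share the original/B6129SF1 tumors. All 10 genes had a log2 difference above 0 in each of them, with a median of 1.06 in adapted/B6129SF1, 1.29 in adapted/B6 and 1.19 in both together, where the median over all genes tested was -0.03. All 10 passed the filter of 1 FPKM in at least 3 tumors, 6 of them only through adapted tumors. The counts and medians therefore describe the set and are not support for it.

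The separation of the groups was wider than the calls. In 10 of the 10 genes every adapted/B6 tumor lay above every original/B6129SF1 tumor, against 14.9% of all genes tested. For adapted/B6129SF1 this held for 4 genes, Cd3e, Cd3g, Cd247 and Cd2, against 13.6% of genes, and for both adapted groups together it held for the same 4 genes, against 8.54%. Without adapted/B6129SF1 replicate 1, the lowest tumor of its group for all 10 genes, it held for 10 of 10 genes in that group, against 17.6% of genes. As 6 of the 10 genes passed the filter only through adapted tumors, these counts too describe the set and are not support for it.

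The calls rested on single tumors. Adapted/B6129SF1 replicate 1 was singled out by its low values for these same genes, so leaving it out had to raise the differences of its group. The counts and p-values without it describe this dependence and are not support for a difference. Without adapted/B6129SF1 replicate 1, 8 of the 10 genes, all but Cd4 and Zap70, were called higher in the adapted/B6129SF1 group, against 2.7% of genes. The same number was called in the adapted/B6 group, also against 2.7%, and in both groups together, against 2.74%. Replicate 1 is not an adapted/B6 tumor, but the 9 tumors shared a single estimate of the spread, and with it left out the SE of Cd3g in the adapted/B6 group went from 0.36 to 0.18. When only the original/B6129SF1 and adapted/B6 tumors were fitted, 8 genes were likewise called, against 2.75% of genes. In the adapted/B6129SF1 group without replicate 1, Cd8b1 was higher by 1.94 (SE 0.27, adjusted p = 0.00943 from limma) and Cd8a by 1.65 (SE 0.23, adjusted p = 0.0100). Cd4 and Zap70 then missed both thresholds, at 0.92 (adjusted p = 0.0643) and 0.81 (adjusted p = 0.0520), with 2 tumors left in the group. Leaving out any other single tumor gave 0 calls in the adapted/B6129SF1 group, including that of Cd3g, and 0 to 3 in the adapted/B6 group and in both combined. Leaving out both muscle-rich tumors gave 0, 0 and 1 call. The share of all genes called was not counted with those tumors left out.

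Between the hosts of the adapted cells, 0 of the 10 genes were called higher in adapted/B6 than in adapted/B6129SF1 by limma, against 0.0% of all genes, and 0 had an unadjusted p under 0.05, against 643 of the 10263 genes tested. The log2 differences ran from 0.06 for Cd3e to 0.57 for Cd8a, with adjusted p between 0.877 and 0.982. Tumors of the groups overlapped for 10 of 10 genes, while 6.32% of all genes were higher without overlap. Without adapted/B6129SF1 replicate 1 the sign turned for all 10, with differences from -0.01 for Cd8a to -0.38 for Lck (adjusted p = 0.597 from limma), and Lck was then the gene with the smallest unadjusted p, at 0.0413. No host difference in these genes passed the adjusted threshold with either set of tumors.

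**Figure D2:**
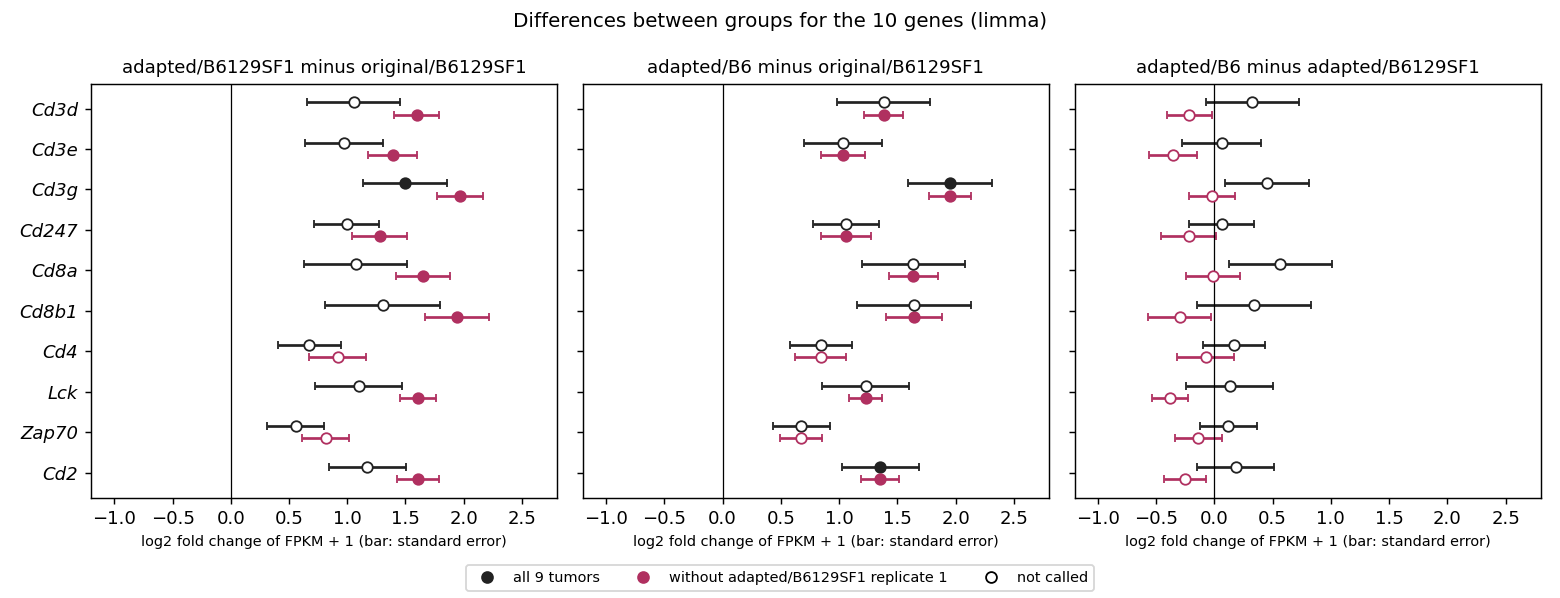
Log2 difference of FPKM + 1 (horizontal axis) for each of the 10 genes (vertical axis) in the 3 comparisons between groups, with bars of 1 SE, for all 9 tumors in black and without adapted/B6129SF1 replicate 1 in red. Filled points are called and open points are not, and leaving that tumor out takes the calls against original/B6129SF1 from 1 to 8 genes in the left panel and from 2 to 8 in the middle panel, while every point in the right panel moves below 0.

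The CD8 and CD4 arms were then compared within each tumor. The ratio of Cd8a to Cd4 FPKM was 2.89, 1.33 and 0.437 in the original/B6129SF1 tumors, 0.708, 3.43 and 1.38 in the adapted/B6129SF1 tumors, and 2.43, 1.91 and 2.63 in the adapted/B6 tumors. Cd8a exceeded Cd4 in 7 of the 9 tumors, and the exceptions were original/B6129SF1 replicate 3 and adapted/B6129SF1 replicate 1. The adapted/B6 tumors lay close together, and the original and adapted/B6129SF1 tumors spread around them on both sides. As log2 values with 0.1 added to both genes, the group means were 0.20 ± 1.17, 0.58 ± 1.08 and 1.16 ± 0.235 (SD, n = 3 tumors each).

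None of the group differences in this ratio exceeded the spread between tumors. The log2 ratio was higher than in original/B6129SF1 by 0.37 in adapted/B6129SF1 (exact permutation test, two-sided, p = 0.7) and by 0.95 in adapted/B6 (exact permutation test, p = 0.3). It was higher by 0.58 in adapted/B6 than in adapted/B6129SF1 (exact permutation test, p = 0.5), where 3 tumors against 3 cannot give a p below 0.1. For both adapted groups together the difference was 0.66 (exact permutation test, p = 0.3095), where the smallest possible p is 0.0238. The direction of the difference in adapted/B6129SF1 turned when either adapted/B6129SF1 replicate 2 (-0.19) or original/B6129SF1 replicate 3 (-0.24) was left out. Over all single tumors left out, the difference ran from 0.34 to 1.50 in adapted/B6 and from 0.048 to 1.21 in both adapted groups, each lowest without original/B6129SF1 replicate 3 and highest without original/B6129SF1 replicate 1. Between the adapted groups it ran from 0.078 without adapted/B6129SF1 replicate 1 to 1.15 without replicate 2. The larger fold of Cd8a than of Cd4 between the group means was thus not matched by a separation of the groups in the ratio within tumors.

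Cd8b1 to Cd4 was 2.33, 0.513 and 0.176 in the original/B6129SF1 tumors, 0.512, 3.86 and 1.30 in the adapted/B6129SF1 tumors, and 1.99, 1.70 and 1.86 in the adapted/B6 tumors. With Cd8b1 in place of Cd8a the log2 ratio was higher than in original/B6129SF1 by 1.03 in adapted/B6129SF1 (exact permutation test, p = 0.5), by 1.40 in adapted/B6 (exact permutation test, p = 0.4) and by 1.22 in both together (exact permutation test, p = 0.2619). These differences were larger than with Cd8a, and none passed the threshold. Within the CD8 pair, Cd8b1 was between 0.709 and 0.887 of Cd8a in the adapted/B6 tumors and between 0.387 and 1.12 over all 9. The lowest ratios of beta to alpha were 0.387 and 0.402, in original/B6129SF1 replicates 2 and 3, where both chains were below 0.6 FPKM and a ratio is least precise.

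**Figure D3:**
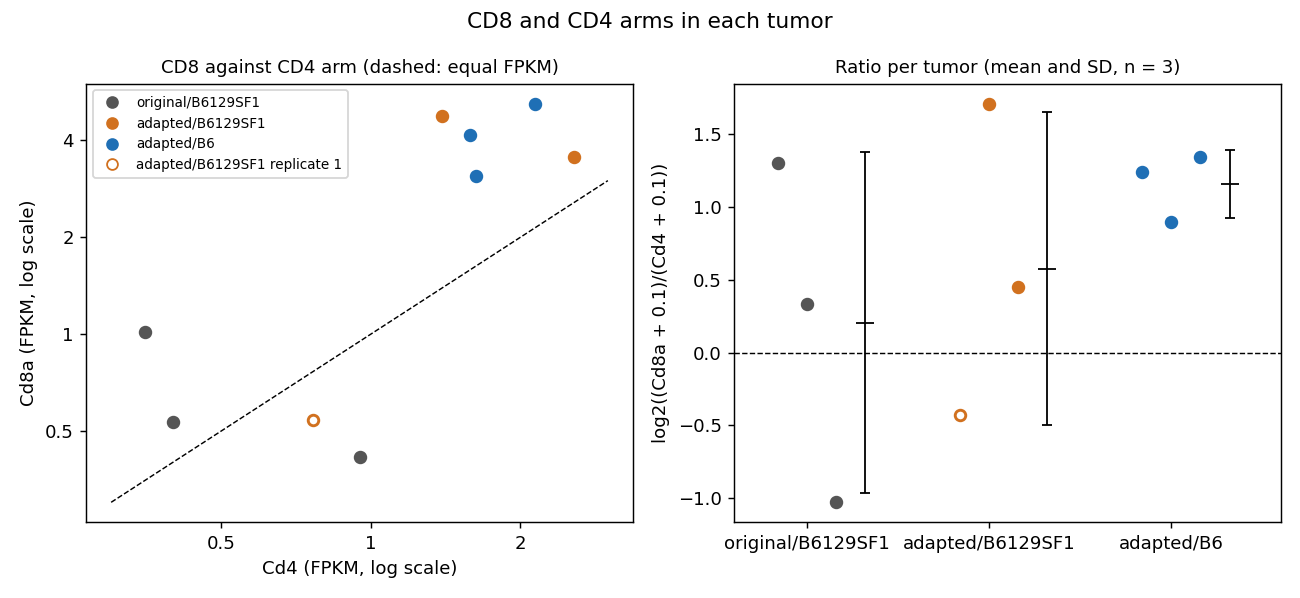
Cd8a and Cd4 FPKM of each of the 9 tumors, and their ratio by group on a log2 scale with 0.1 added to both genes. Points are tumors, the open point is adapted/B6129SF1 replicate 1, dashed lines mark equal levels and black marks are the mean and SD of 3 tumors. The ratio of the adapted/B6 tumors lies between 0.89 and 1.34, inside the range of the other tumors, which runs from -1.03 to 1.71.

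Some dendritic cells carry CD8 alpha or CD4, and their part in the Cd8a and Cd4 levels was not tested. Of the 10 dendritic cell markers tested, 2 were called higher in adapted/B6129SF1, Clec9a and Irf8, and 3 in adapted/B6, the same genes and Bst2. Over all genes tested, 2.36% and 2.42% were called higher in these groups, which holds beside the counts of the lists below as well. Clec9a, a receptor of cross-presenting dendritic cells, was at 0.416, 0.154 and 0.236 FPKM in the original/B6129SF1 tumors, at 6.15, 3.46 and 2.75 in the adapted/B6129SF1 tumors, and at 2.99, 4.71 and 3.52 in the adapted/B6 tumors. It was highest in adapted/B6129SF1 replicate 1, the tumor with the least Cd8a and Cd8b1 of its group. Other markers of the list did not share this order. Batf3 was at 0.391, 1.36 and 1.44 FPKM in the adapted/B6129SF1 tumors, and Xcr1 at 0.149, 0.281 and 0.284, both lowest in replicate 1. The summed FPKM of all 15 dendritic cell markers ranged from 90.4 to 122.1 in original/B6129SF1, from 153.3 to 192.0 in adapted/B6129SF1 and from 198.3 to 278.7 in adapted/B6. Most of this sum was Bst2, which other cells also express, at 60.6 to 92.1 FPKM in original/B6129SF1, 104.8 to 123.5 in adapted/B6129SF1 and 124.6 to 217.6 in adapted/B6.

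Cd3d, Cd3g, Lck and Cd2 kept a narrower range relative to Cd3e than in level. Over all 9 tumors, Cd3d was 1.09 to 2.26 times Cd3e, Cd3g was 1.86 to 3.71 times, Lck was 1.63 to 2.79 times and Cd2 was 1.52 to 2.93 times. Zap70 was 0.759 to 0.810 of Cd3e in the adapted/B6 tumors, against 0.793, 1.85 and 1.50 in the original/B6129SF1 tumors, where both genes were under 1 FPKM. Cd8a to Cd3e was 1.91 to 2.20 in the adapted/B6 tumors and 0.887 to 1.46 in the adapted/B6129SF1 tumors, which did not overlap, but the original/B6129SF1 tumors, at 0.744 to 2.07, covered both. No test was run on these proportions.

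Relative to a leukocyte gene, Cd3e was higher in 5 of the 6 adapted tumors than in any original tumor. Ptprc, which encodes CD45 on all leukocytes, was at 16.5, 11.6 and 18.8 FPKM in the original/B6129SF1 tumors, at 21.9, 31.6 and 34.5 in the adapted/B6129SF1 tumors, and at 35.6, 17.6 and 31.6 in the adapted/B6 tumors. Its log2 difference from original/B6129SF1 was 0.87 in adapted/B6129SF1 (adjusted p = 0.0959 from limma) and 0.78 in adapted/B6 (adjusted p = 0.134), neither past the threshold. Cd3e as a percent of Ptprc was 2.97, 2.99 and 2.98 in the original/B6129SF1 tumors, 2.78, 10.4 and 7.03 in the adapted/B6129SF1 tumors, and 7.65, 8.52 and 6.00 in the adapted/B6 tumors. The original tumors were nearly identical, replicate 1 of adapted/B6129SF1 was just below them, and the other 5 adapted tumors were at least as high as 6.00%. In adapted/B6 replicate 2, with the lowest Ptprc of the adapted tumors, this share was the highest of its group.

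On a log2 scale with 0.1 added to both genes, Cd3e relative to Ptprc was higher than in original/B6129SF1 by 0.80 in adapted/B6129SF1 (exact permutation test, two-sided, p = 0.4) and by 1.08 in adapted/B6 (exact permutation test, p = 0.1, the smallest possible). The adapted/B6 tumors did not overlap the original tumors. The difference between the adapted groups was 0.28 (exact permutation test, p = 0.8), and for both adapted groups against original/B6129SF1 it was 0.94 (exact permutation test, p = 0.0952). Without adapted/B6129SF1 replicate 1 the last of these was 1.16 (exact permutation test, p = 0.0357). That tumor had the lowest log2 ratio of all tumors, at -4.957, and had been singled out by its low T cell genes. Leaving it out therefore had to raise the difference, and the p-value without it is not support for a difference. The size of these differences rested on the pseudocount, and Cd3e was under 1 FPKM in the original tumors. With 1 FPKM added in place of 0.1 they were 0.10 in adapted/B6129SF1 (exact permutation test, p = 0.7), 0.25 in adapted/B6 (exact permutation test, p = 0.4) and 0.18 in both (exact permutation test, p = 0.4524). Without adapted/B6129SF1 replicate 2, the difference of 0.80 in that group was 0.42 (exact permutation test, p = 0.8).

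Cd8b1 as a percent of Ptprc ranged from 0.890 to 4.96 in original/B6129SF1 and from 9.34 to 15.7 in adapted/B6. Cd4 as a percent of Ptprc ranged from 2.13 to 5.07 in original/B6129SF1 and from 5.01 to 9.24 in adapted/B6, so for Cd4 the groups overlapped once the leukocyte gene was taken into account. Zap70 overlapped in the same way, at 2.35 to 5.54 and 4.86 to 6.83.

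**Figure D4:**
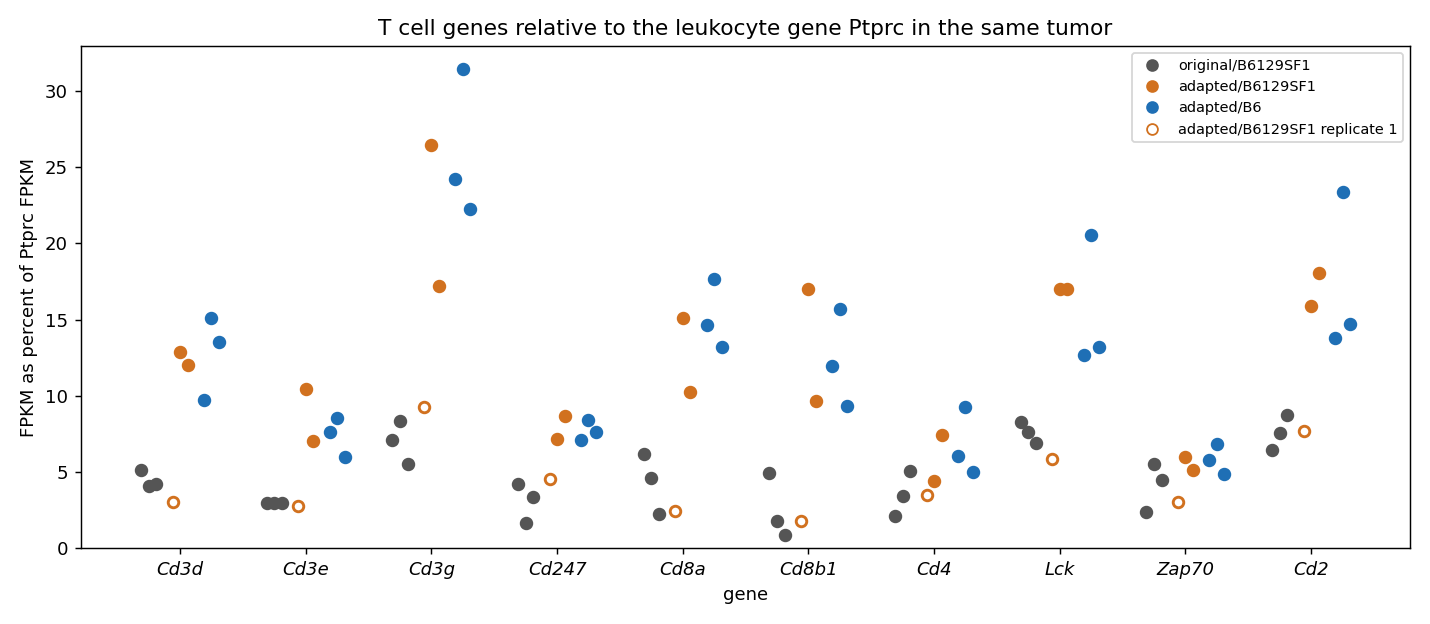
FPKM of each of the 10 genes as a percent of the Ptprc FPKM of the same tumor (vertical axis, linear from 0), by gene on the horizontal axis. Points are tumors and the open point is adapted/B6129SF1 replicate 1. For Cd3e the original/B6129SF1 tumors lie at 2.97% to 2.99% and the adapted/B6 tumors at 6.00% to 8.52%, while the groups overlap for Cd4 and Zap70.

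Downstream of the receptor, few signalling partners passed the test. Of 29 partner genes with a row, 20 were tested, and 16 of these were higher in adapted/B6129SF1 and 15 in adapted/B6 than in original/B6129SF1. Only Fyb was called higher in adapted/B6129SF1, and only Fyb and Lat in adapted/B6, with a median log2 difference over the 20 of 0.43 and 0.28. Lat, the scaffold that Zap70 phosphorylates, was at 0.839, 0.936 and 0.982 FPKM in the original/B6129SF1 tumors, at 1.88, 3.87 and 2.71 in the adapted/B6129SF1 tumors, and at 3.51, 3.03 and 3.06 in the adapted/B6 tumors. Unlike Lck, it was above the original tumors in replicate 1 as well, and it rose by 1.13 in adapted/B6 (SE 0.19, adjusted p = 0.0109 from limma).

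Fyb, an adaptor used by T cells and myeloid cells, was at 9.96 to 17.7 FPKM in original/B6129SF1, 29.5 to 36.6 in adapted/B6129SF1 and 33.3 to 40.2 in adapted/B6. It rose by 1.18 (SE 0.19, adjusted p = 0.0117 from limma) and 1.28 (SE 0.19, adjusted p = 0.00743). Csk, a ubiquitous gene whose product restrains Lck, was at 26.4 to 32.6 FPKM in original/B6129SF1 and 28.0 to 36.6 in adapted/B6. The ubiquitous adaptor Grb2 was at 43.5 to 48.7 and 41.4 to 47.6. Neither was called, with log2 differences of 0.14 (adjusted p = 0.573) and -0.04 (adjusted p = 0.844) in adapted/B6. Partners that are largely T cell genes were often too low to test, such as Themis, a T cell development factor, which stayed at or below 0.799 FPKM in every tumor.

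Of 12 other T cell surface and lineage genes tested, 12 were higher than in original/B6129SF1 in both adapted groups, with median log2 differences of 0.60 and 0.74. In adapted/B6129SF1 0 were called by limma, with 5 at an unadjusted p under 0.05, and in adapted/B6 3 were called, Thy1, Icos and Lef1. Over all 10263 genes tested, 2721 had an unadjusted p under 0.05 in adapted/B6129SF1 and 2502 in adapted/B6, in either direction. These numbers stand beside the unadjusted counts of the lists below as well, which hold only genes that were higher. Icos, a costimulatory receptor of activated T cells, was at 0.526, 0.265 and 0.636 FPKM in original/B6129SF1, at 0.466, 1.30 and 1.72 in adapted/B6129SF1, and at 2.17, 2.02 and 1.93 in adapted/B6, so it followed the receptor genes in replicate 1. Thy1 and Lef1 did not, with 117.7 FPKM for Thy1 and 14.5 FPKM for Lef1 in replicate 1, the highest of their group. Both genes are also used outside T cells, Thy1 by fibroblasts and Lef1 in Wnt signalling. Without replicate 1, 2 of the 12 were called in adapted/B6129SF1 and 4 in adapted/B6, against 2.7% of all genes tested in each group.

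Genes of cytotoxic cells and of helper and regulatory T cells were also followed, and the difference between these lists was not tested. The cytotoxic list is not particular to CD8 T cells, and it shares Eomes with the list of NK cell markers. The part of NK cells in its levels was not tested. Of 13 cytotoxic genes tested, 13 were higher in both adapted groups, with median log2 differences of 0.77 and 1.33. In adapted/B6129SF1 2 were called higher, Ccl5 and Nkg7, and in adapted/B6 6 were called, Ccl5, Gzmb, Gzma, Nkg7, Ifng and Ccl4. Without adapted/B6129SF1 replicate 1 these counts were 7 and 10, against 2.7% of all genes tested in each group. The rise was not uniform over the list. Prf1, which encodes perforin, differed by 0.07 in adapted/B6129SF1 (adjusted p = 0.936 from limma), where its mean FPKM was lower, at 3.39 against 3.59. It was at 1.11 to 5.23 FPKM in original/B6129SF1, 2.88 to 4.40 in adapted/B6129SF1 and 3.75 to 7.13 in adapted/B6, so the groups overlapped. Gzmb, the granule protease granzyme B, was at 7.01, 3.22 and 11.2 FPKM in original/B6129SF1, at 8.89, 9.71 and 13.2 in adapted/B6129SF1, and at 44.2, 28.7 and 46.8 in adapted/B6. It was thus highest in the adapted/B6 tumors, while Cd8a and Cd8b1 of adapted/B6129SF1 replicates 2 and 3 lay within or above the range of those tumors. Gzmb rose by 2.43 in adapted/B6 (SE 0.36, adjusted p = 0.0070 from limma) against original/B6129SF1, while its difference between the adapted groups was 1.80 (SE 0.36, adjusted p = 0.322).

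Nkg7, a granule protein of cytotoxic cells, was at 2.91, 1.44 and 2.66 FPKM in original/B6129SF1, at 4.17, 12.5 and 12.7 in adapted/B6129SF1, and at 12.6, 8.38 and 14.8 in adapted/B6, and so followed the tumors with high Cd8a. Runx3, the transcription factor of the CD8 lineage, was not called, at 3.54 to 7.03 FPKM in original/B6129SF1 and 4.76 to 8.50 in adapted/B6, with a log2 difference of 0.39 (adjusted p = 0.377 from limma).

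Of 8 helper and regulatory T cell genes tested, 0 were called higher in adapted/B6129SF1 by limma, with 2 at an unadjusted p under 0.05, and 1 in adapted/B6, Tnfrsf18, and the median log2 differences were 0.29 and 0.30. Tnfrsf18, which encodes the receptor GITR of regulatory and activated T cells, rose by 1.03 in adapted/B6 (SE 0.19, adjusted p = 0.0166 from limma), from 1.39 to 2.37 FPKM in original/B6129SF1 to 3.74 to 5.27. Ctla4, an inhibitory receptor of regulatory and activated T cells, was at 0.593 to 1.20 FPKM in original/B6129SF1 and 2.53 to 2.95 in adapted/B6, a log2 difference of 0.94 (adjusted p = 0.105). Zbtb7b, the transcription factor of the CD4 lineage, was at 16.1 to 27.1 FPKM in original/B6129SF1 and 13.7 to 17.8 in adapted/B6, with a log2 difference of -0.31 (adjusted p = 0.327). Its level was many times that of Cd4 in every tumor. The antigen-binding T cell receptor chains and the regulatory T cell factor Foxp3 were not analysed here.

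Markers of other lymphocytes were mostly low. The NK cell genes Ncr1 and Klrb1c stayed at or below 0.610 and 0.597 FPKM in every tumor, and 7 of the 12 NK cell markers were under 1 FPKM throughout. These 7 were not tested. Among them Klrb1c, at 0.516 to 0.597 FPKM in adapted/B6, lay above original/B6129SF1, at 0.0435 to 0.349, and Klri2 and Klra8 likewise did not overlap. Ncr1, Klra7, Klre1 and Eomes overlapped between these groups, and the mean of Klre1 was lower in adapted/B6. Of the 5 tested, 0 were called higher by limma in either adapted group, with 2 and 1 higher at an unadjusted p under 0.05. Klra4, a member of the Ly49 receptor family, fell by 1.75 in adapted/B6129SF1 (SE 0.29, adjusted p = 0.0117 from limma) and by 1.18 in adapted/B6 (SE 0.29, adjusted p = 0.0471). Its level was 17.8 to 31.0 FPKM in original/B6129SF1, 4.82 to 8.62 in adapted/B6129SF1 and 7.75 to 15.1 in adapted/B6. These values were far above those of Ncr1 and Klrb1c, and the cell source of Klra4 was not tested. The summed level of the NK list, mainly Tyrobp and Fcgr3, which macrophages share, was 380.0 to 500.3 FPKM in original/B6129SF1, 571.6 to 657.4 in adapted/B6129SF1 and 357.2 to 662.5 in adapted/B6.

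All 9 B cell markers were under 1 FPKM in every tumor, and their sum ranged from 0.654 to 2.27 FPKM. Rag2, which developing thymocytes need to build their receptor, was listed at 0 in every tumor, and Rag1 was listed above 0 only in adapted/B6129SF1 replicate 1, at 0.0183 FPKM. Ccl21a, a chemokine of lymph node stroma, was at 10.5 FPKM in adapted/B6129SF1 replicate 3 and 17.6 in adapted/B6 replicate 1, the tumors rich in muscle transcripts, and at or below 1.79 elsewhere. Adapted/B6129SF1 replicate 2 and adapted/B6 replicates 2 and 3 had low Ccl21a and muscle transcripts, and Cd3e of 3.29, 1.50 and 1.89 FPKM. Cxcl13, another stroma chemokine, was at 3.68, 16.1 and 17.6 FPKM in the adapted/B6129SF1 tumors, and at 11.8, 0.780 and 0.444 in the adapted/B6 tumors. Its level was thus high in both tumors rich in Ccl21a, and also in adapted/B6129SF1 replicate 2, where Ccl21a was low. It was at 0.543 to 3.07 FPKM in original/B6129SF1. The part of lymph node tissue in the T cell levels of any tumor was not tested.

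Macrophage markers were present in every tumor. Of 13 tested, 1 was called higher in adapted/B6129SF1, the monocyte chemokine receptor Ccr2, and 0 in adapted/B6 by limma, with 3 there at an unadjusted p under 0.05. Their summed level was 2489 to 3263 FPKM in original/B6129SF1, 3343 to 4825 in adapted/B6129SF1 and 2101 to 4081 in adapted/B6, and adapted/B6129SF1 replicate 1, with few T cell transcripts, had 4198. Of 11 pan-leukocyte genes, 2 were called higher in adapted/B6129SF1, Arhgdib and Cd52, and 0 in adapted/B6 by limma, with 6 there at an unadjusted p under 0.05. Of the 19 muscle, 2 thymocyte, 2 thyroid and 2 lymph node stroma genes tested, 0 were called higher in either group by limma, and 1 of them, the stroma chemokine Cxcl13 in adapted/B6129SF1, had an unadjusted p under 0.05.

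Across the 9 tumors the 10 genes moved together. Pearson's r of log2(FPKM + 1) between pairs of them ranged from 0.798 to 0.988, with a median of 0.953 over 45 pairs, a description of tumors that share their groups and not a test. Among all other genes tested, the closest to Cd3e were Cd6 (0.981), Sh2d2a (0.977), Gimap4 (0.974), Rab19 (0.973) and Parvg (0.972). The closest to Cd8a were Gimap4 (0.971), Ms4a4b (0.971), Cd27 (0.970), Klrc1 (0.964) and Sh2d2a (0.964). The closest to Cd4 were Serpinb6b (0.977), Il27ra (0.964), Tnni3 (0.954), Gimap8 (0.933) and Cd83 (0.929). Cd3e and Cd8a shared Gimap4 and Sh2d2a among their closest 5 genes, and Cd4 shared none of its 5 with either.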

How the data were processed

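RNA was measured in 9 whole tumors, 3 per group, with groups and replicate numbers taken from the labels. The deposited table holds FPKM, normalized by the authors across the 9 tumors with Cuffnorm. According to the study's methods and the submitters' processing notes, reads were checked with FastQC, aligned to mm10 with HISAT2 and tested with Cuffdiff, whose results were not used. The gene annotation is not given in the sources used here. FPKM are not counts, so no count test was used.

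Genes reaching 1 FPKM in 3 or more of the 9 tumors (10263) were tested as log2(FPKM + 1) with limma 3.58.1 in R 4.3.3 (eBayes with trend, 1 model of all tumors) and Benjamini-Hochberg adjustment over all of them. Genes were called where the adjusted p was under 0.05 and the log2 fold change exceeded 1 in size. Ratios had a pseudocount of 0.1 and exact two-sided permutation tests. The number of tumors limits the precision. Nothing beyond the replicate labels says how the replicates were separated, so p-values measure the spread between these tumors.

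The 10 genes and the 14 marker lists were chosen with earlier results of these data known. From each list the called genes and up to 2 uncalled genes of high level were to be named, with the 5 genes closest to Cd3e, Cd8a and Cd4. Icos, Runx3, Ctla4, Zbtb7b, Themis, Csk, Ncr1, Klrb1c, Klri2, Klra8, Klra7, Klre1, Eomes, Ccl21a, Rag1, Rag2 and Krt8 were named for their role, some after their values were seen. Batf3, Xcr1 and Prf1 were named after their values were seen. The settings varied were the scaling, the filter, the pseudocount and the tumors fitted, and a replicate block was tried. Same-numbered tumors are different animals.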

Additional observations from a re-analysis of the deposited data

How the results depend on the processing

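The counts of T cell genes called depended on the processing. Apart from the main fits, the share of all genes called is given above only without adapted/B6129SF1 replicate 1 and with only original/B6129SF1 and adapted/B6 fitted. In the other settings a change in the T cell genes cannot be told from a change in calling over all genes. For adapted/B6129SF1 against original/B6129SF1 the count was 1, and it was 0 with no filter, with quantile scaling, with only the groups compared and with both muscle-rich tumors left out. For adapted/B6 against original/B6129SF1 it was 2, and it was 1 with no filter, 1 with quantile scaling, 8 with only the groups compared and 0 without the muscle-rich tumors. For both adapted groups together it was 4, and it was 2 with quantile scaling, 1 without the muscle-rich tumors and 6 with a pseudocount of 0.1, which called Cd8b1 and Cd3e as well. With that pseudocount the log2 differences were larger, as for Cd8b1 in adapted/B6, at 3.00 in place of 1.64. Leaving out each tumor in turn gave 0 to 8 in each of these comparisons, and the 8 came without adapted/B6129SF1 replicate 1. Between the adapted groups the count was 0 in every setting tried. With the replicate number as a replicate block the counts were 0, 1 and 2, but same-numbered tumors are different animals and their deviations correlated at -0.388 to 0.614, so the numbers do not pair the tumors.

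The count of genes higher without overlap went from 4 to 10 without adapted/B6129SF1 replicate 1, both for adapted/B6129SF1 and for both groups together, and from 0 to 1 between the adapted groups without the muscle-rich tumors, settings chosen after seeing the data. Without that replicate the share of all genes was 17.6% for adapted/B6129SF1. For both groups together and without the muscle-rich tumors it was not counted. Leaving out each tumor in turn took the CD8 to CD4 difference of adapted/B6129SF1 from -0.243 to 0.923. For Cd3e to Ptprc it took the difference between the adapted groups from -0.205 to 0.661, and that of both adapted groups from 0.818 to 1.16. The last was 1.56 with Cd53 in place of Ptprc (exact permutation test, p = 0.0476) and 0.18 with a pseudocount of 1 (exact permutation test, p = 0.4524). Between the adapted groups the log2 differences of single genes turned sign when tumors were left out, with ranges of -0.21 to 0.60 for Cd3d, -0.36 to 0.35 for Cd3e, -0.018 to 0.80 for Cd3g and -0.22 to 0.28 for Cd247. They were -0.011 to 0.94 for Cd8a, -0.30 to 0.80 for Cd8b1, -0.075 to 0.43 for Cd4, -0.38 to 0.41 for Lck, -0.14 to 0.26 for Zap70 and -0.25 to 0.47 for Cd2. Against original/B6129SF1 no direction of a single gene turned in any setting tried. The folds without single original/B6129SF1 tumors and the check of a label on 200 genes were also chosen after seeing the data. The causes of these changes were not tested. Levels near or under 1 FPKM, as in the original/B6129SF1 tumors, rest on few reads.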
